A study of Homo sapiens with 12 samples.

Results

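The RNA contacts of IGF2BP1 were compared with those of the METTL1-WDR4 complex in HepG2 cells, a human liver cancer line. The data came from PAR-CLIP, in which RNA is labelled with 4-thiouridine (4SU), crosslinked to protein by ultraviolet light, digested with RNase T1 and precipitated with an antibody to the protein. The groups were IGF2BP1 (2 libraries), METTL1 (2 libraries) and WDR4 (2 libraries), which are 6 of the 12 libraries of the series. All 6 came from wildtype HepG2 cells fed 4SU, and the groups differed by the antibody.

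Each library was deposited as a list of clusters, which are the intervals where reads with crosslink conversions piled up. IGF2BP1 had 14502 and 15701 clusters, METTL1 6615 and 8648, and WDR4 9765 and 9205, together 64436 of the 102250 clusters of the series. A site was a merged interval with clusters on the same strand from 2 or more libraries of a side, where METTL1 and WDR4 together formed a single side of 4 libraries. This rule kept 10603 of 19367 merged IGF2BP1 intervals and 4561 of 26058 merged intervals of the complex. Where sites of both sides shared 1 nt or more of a strand, they were called the same site.

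IGF2BP1 is an RNA-binding protein with RRM and KH domains that is best known for holding on to mRNAs such as IGF2 through their untranslated and coding regions, and for raising the stability of many of them. METTL1 is the catalytic subunit and WDR4 the partner subunit of the methyltransferase that places internal N7-methylguanosine (m7G) in the variable loop of a set of tRNAs, and the study treats the complex as a writer and the IGF2BP family as readers of m7G inside mRNA. The comparison asks how far the RNA contacts of a proposed reader and of the writer coincide. The files hold intervals without read counts or scores, so all comparisons below are of presence, position and sequence. No input or mock precipitation library and no RNA level was used here, so abundance and contact could not be told apart.

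Sequences of 30 nt were read from hg38. In the first sets they lie around the midpoints of 3' UTR sites whose centre occurs in the genome in a single copy, 1 per gene. Capitals mark the letters CATA, CATC or CATT (CAUH in RNA, the core of the element that IGF2BP proteins are known to prefer), GGAC, and AAGGT or GAGGT. The first set shows what was contacted in all 6 libraries, in the genes with the most sites among 133 with such a site.

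IGF2, same site, chr11:2129410-2129439, minus strand: ctcccctgggccactaacCATCctggcccg
NFAT5, same site, chr16:69698096-69698125, plus strand: catgttttcttccctccacctccacccctt
PLBD2, same site, chr12:113389579-113389608, plus strand: cCATCcgtcttcCATCatcCATCCATCcat
PEG10, same site, chr7:94669591-94669620, plus strand: taactttattgctgtattctcttcactcta

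The second set shows 3' UTR sites found in both IGF2BP1 libraries and overlapped by no cluster of any METTL1 or WDR4 library, in the genes with the most sites among 1456. For IGF2, NFAT5 and PEG10 the mRNA is the same as above and the place differs.

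IGF2, IGF2BP1 alone, chr11:2131044-2131073, minus strand: CATAccccaccCATTcccgatacaccttac
NFAT5, IGF2BP1 alone, chr16:69696540-69696569, plus strand: aaCATCttCATAttttatattcctaataac
PEG10, IGF2BP1 alone, chr7:94665710-94665739, plus strand: gccctcaaaatttattcctgttcagcttct
MDM2, IGF2BP1 alone, chr12:68841547-68841576, plus strand: cctttttcacacacaaaaaaatcctttatg

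The third set shows sites found in all 4 libraries of the complex and in neither IGF2BP1 library. The rule for 3' UTRs left 1 gene, SRRM2, so the sites in 5' UTRs and coding sequence with at most 2 genomic copies were added after the values were seen. SRRM2 encodes a scaffold protein of nuclear speckles, CDKN1B the cell cycle inhibitor p27, and H2AC13 a histone H2A, whose site has the same 30 letters in H2AC14.

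SRRM2, complex alone, 3' UTR, chr16:2771246-2771275, plus strand: cttggaaggaaggggcaggagttggaatta
CDKN1B, complex alone, 5' UTR, chr12:12717742-12717771, plus strand: ttccgagaggggttcgggctgcgtaggggc
FBXW11, complex alone, 5' UTR, chr5:172006556-172006585, minus strand: ctctgccgcctccgccgtcgcctcctccgc
H2AC13, complex alone, coding sequence, chr6:27808321-27808350, plus strand: ggcaactatgcggagcgggtcggtgctgga

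The fourth set shows the complex at its known substrate class. Of 7 sites at tRNA genes in 3 or 4 libraries of the complex, 4 held the T-arm motif (GTTCGA, then any 2 bases, then CC) in the window and 3 did not. Printed are the 3 with a single-copy centre, all without an IGF2BP1 cluster. The 2 with the motif, in capitals, are centred on it rather than on the midpoint, so their first letters lie before the site, which is at chr2:27050853-27050886 for TRY-GTA2-1 and at chr6:27479719-27479760 for TRD-GTC2-6. tRNA genes were taken from the RefSeq gene table, which gives no strand, and the strand printed is that of the cluster. Capitals in this set mark the T-arm motif alone, so the CATC in TRA-CGC3-1 is in small letters. The label no motif means that this exact pattern was absent. The first letters printed for TRA-CGC3-1 differ from the pattern by a single base.

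TRY-GTA2-1, complex alone, chr2:27050840-27050869, plus strand: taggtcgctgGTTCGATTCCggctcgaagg
TRD-GTC2-6, complex alone, chr6:27479715-27479744, plus strand: ggagaccgggGTTCGATTCCccgacgggga
TRA-CGC3-1, complex alone, no motif, chr2:156400820-156400849, plus strand: gttcaatccccggcatctccaaatcagccg

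The libraries of the 2 sides lay in different parts of the transcriptome. The 3' UTR was the most common region for IGF2BP1, with 42.6% and 42.9% of the clusters of its libraries there. The 3' UTR share was 19.97% and 19.5% for METTL1 and 19.5% and 17.4% for WDR4, so all 4 libraries of the complex lay below both IGF2BP1 libraries. The means were 42.8% ± 0.156 (SD, n = 2) and 19.1% ± 1.16 (SD, n = 4), and the difference of 23.7 percentage points gave p = 0.0667 by a two-sided exact permutation test over 15 splits. That is the smallest p this design allows, so no comparison of these libraries can pass a threshold of 0.05. Here and below, each SD and test with n = 4 pools METTL1 and WDR4 libraries. Spread between these proteins is thus mixed with spread between replicates. With METTL1 alone or WDR4 alone as the complex, the 3' UTR difference kept its direction, and the exact permutation test gave p = 0.333 in both cases. The 95% Wilson interval for IGF2BP1 replicate 1 ran from 41.8% to 43.4% and covers counting error only.

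Intron clusters went the other way. They made up 22.3% and 21.8% of the IGF2BP1 libraries, 39.0% and 39.6% of the METTL1 libraries, and 42.9% and 44.2% of the WDR4 libraries. The groups did not overlap, with a difference of -19.3 percentage points (exact permutation p = 0.0667). These shares count every cluster, reproducible or not. Among sites of the complex in 2, 3 and 4 of its libraries, introns held 34.4%, 28.7% and 22.4%, and 3' UTRs 25.8%, 31.0% and 29.9%. The part of reproducibility in the difference between the groups was not tested. Coding sequence held 11.4% ± 0.690 (SD, n = 2) of IGF2BP1 clusters and 6.10% ± 1.89 (SD, n = 4) of those of the complex, again without overlap (exact permutation p = 0.0667). Intergenic clusters were at 12.8% ± 0.265 (SD, n = 2) against 19.1% ± 2.45 (SD, n = 4), also without overlap (exact permutation p = 0.0667). Among clusters at or above their library's median width, the coding sequence difference was 2.42 and the intergenic difference -0.547 percentage points (exact permutation p = 0.133), while the 3' UTR and intron differences were 18.1 and -17.4. Noncoding exons held 5.43% ± 0.0990 (SD, n = 2) and 5.12% ± 0.329 (SD, n = 4), where the groups overlapped and the exact permutation test gave p = 0.2. In all, 35 measures were compared between the groups, 24 of them without overlap, and the smallest Benjamini-Hochberg adjusted p was 0.130.

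**Figure D1:**
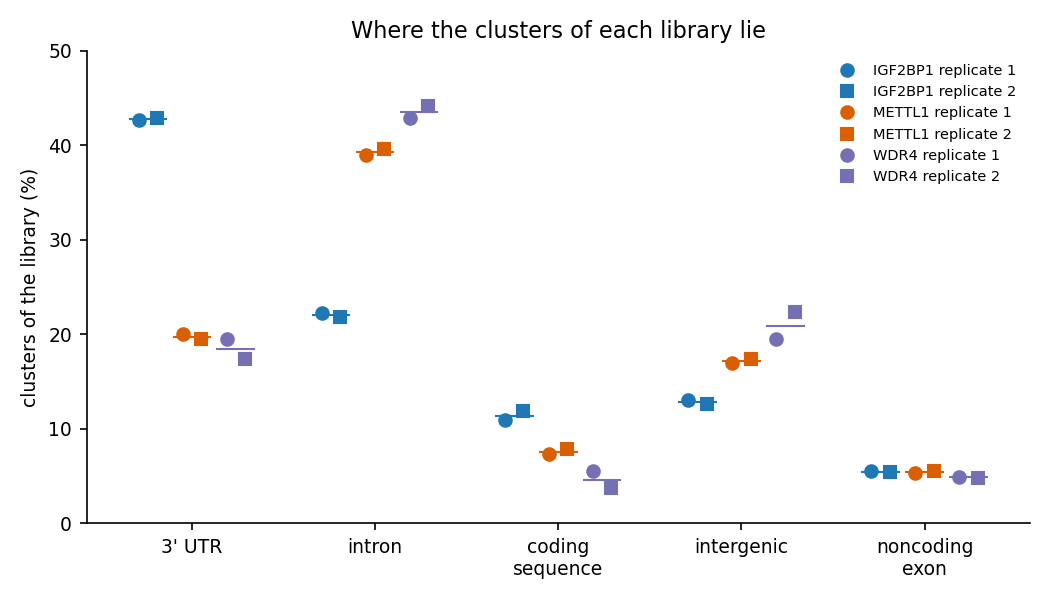
Percentage of the clusters of each library (y axis, %) in 5 kinds of region (x axis), with points for the libraries and short lines for the mean of each protein. In 3' UTRs the IGF2BP1 libraries sit at 42.6% and 42.9% and the other 4 between 17.4% and 19.97%, while in introns the order is turned.

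Replicates also overlapped to different degrees. Of the clusters of IGF2BP1 replicate 1, 73.9% overlapped a cluster of replicate 2, and 68.3% the other way round. The corresponding percentages were 30.5% and 23.05% for the METTL1 libraries and 26.8% and 28.6% for the WDR4 libraries. Between METTL1 and WDR4 libraries, 18.3% to 28.5% of the clusters of a library overlapped. Each library of the complex had 27.7% to 33.9% of its clusters at a cluster of an IGF2BP1 library, beside 18.3% to 30.5% at a cluster of another library of the complex. IGF2BP1 libraries have more clusters, and the part of this in the percentages was not tested.

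Of the 10603 IGF2BP1 sites, 2312 (21.8%) lay at a site of the complex, and of the 4561 sites of the complex, 2279 (50.0%) lay at an IGF2BP1 site. The same sites lay close together, since 31.5% of the 2361 overlapping pairs had equal start and end, and the midpoints of 78.3% lay within 10 nt. In 37.1% of the pairs the site of the complex lay inside the IGF2BP1 site, and in 21.7% the reverse was true. Counting single libraries too, 6367 IGF2BP1 sites (60.05%) had no overlapping cluster in any library of the complex, and 1780 sites of the complex (39.0%) had none in either IGF2BP1 library. Of these 1780, 309 (17.4%) overlapped a cluster of an IGF2BP2 or IGF2BP3 library. A missing cluster is a call that was not made and sets no upper limit on contact.

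The share at an IGF2BP1 site went with how often a site of the complex was found. It was 34.3% for the 2530 sites in 2 libraries of the complex, 56.1% for the 981 in 3, and 82.0% for the 1050 in all 4. The sites with METTL1 and WDR4 clusters numbered 3230, of which 58.7% lay at an IGF2BP1 site. Sites with METTL1 libraries only numbered 424 (33.3% at an IGF2BP1 site) and with WDR4 libraries only 907 (26.8%). The median width also went with the number of libraries, from 41 nt for sites in 2 to 58 nt for sites in 4, and the single-copy share from 55.3% to 34.6%, and their part in the overlap was not tested. Without WDR4 replicate 1, the sites of the complex numbered 3032.

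By region, the overlap of the sites of the complex was highest on the mitochondrial chromosome and in 3' UTRs. Of the sites of the complex in 3' UTRs, 1004 of 1272 (78.9%) lay at an IGF2BP1 site, and of those in coding sequence 197 of 297 (66.3%). In introns this held for 412 of 1388 (29.7%), and in intergenic sequence for 214 of 799 (26.8%). The pattern was the same in each library, where 57.4% to 61.7% of the 3' UTR clusters of METTL1 and WDR4 and 10.7% to 13.2% of their intron clusters lay at an IGF2BP1 site. For IGF2BP1 sites the order was another, with 998 of 4890 (20.4%) at a site of the complex in 3' UTRs, 194 of 1259 (15.4%) in coding sequence and 420 of 2078 (20.2%) in introns, but 51 of 129 (39.5%) in 5' UTRs and 195 of 338 (57.7%) on contigs outside the main chromosomes. The mitochondrial chromosome was held by both sides, with 109 of 112 IGF2BP1 sites and 73 of 89 sites of the complex there shared. Of the 112 and 89 sites, 55 and 40 had no annotated gene on their strand.

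**Figure D2:**
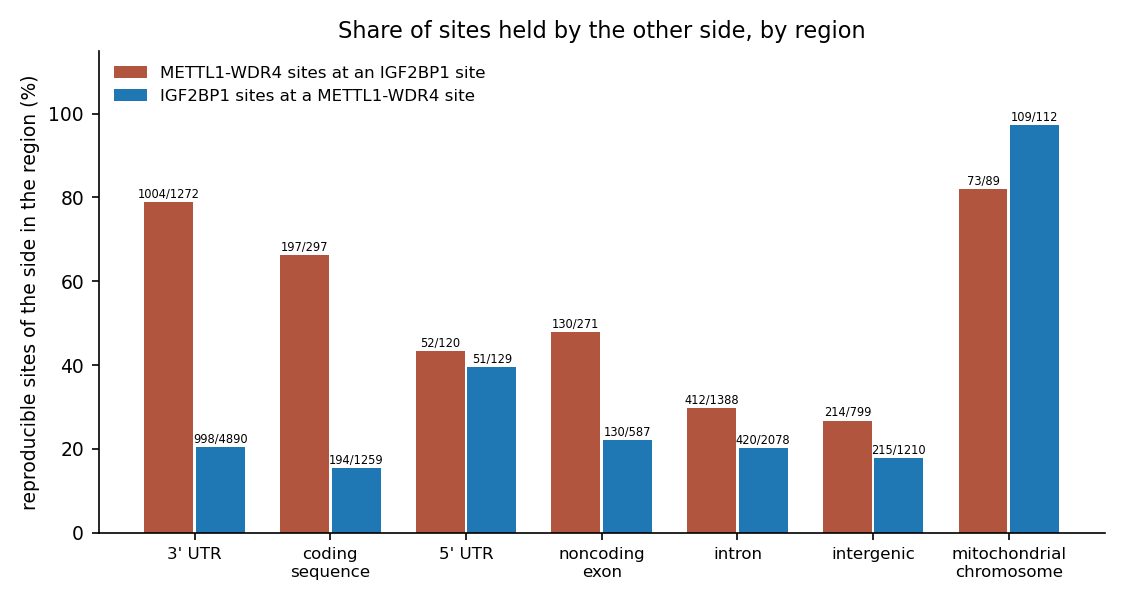
Percentage of the reproducible sites of each side that lay at a site of the other (y axis, %), by region (x axis), with the counts above the bars. The bars of the complex fall from 78.9% in 3' UTRs to 26.8% in intergenic sequence, while those of IGF2BP1 are at 20.4% in 3' UTRs and 17.8% in intergenic sequence.

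The sites that each side held without the other lay in different regions. Of the 2282 of the complex, 42.8% lay in introns, 25.6% in intergenic sequence and 11.7% in 3' UTRs. Of the 8291 IGF2BP1 sites without the complex, 46.9% lay in 3' UTRs, 1658 sites lay in introns, and 12.8% in coding sequence. Among the 104 sites in all 4 libraries of the complex and in no IGF2BP1 library, 35 were intergenic, 23 lay in introns of protein-coding genes, and 2 in a 3' UTR, in RPS19 and SRRM2. The RPS19 site is repetitive, as its central 20 nt occur at 5727 places in hg38.

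The sequence under the sites differed along the same line. In windows of 41 nt centred on 3' UTR clusters, CAUH was present in 50.4% and 52.1% of the windows of the IGF2BP1 libraries, in 35.4% and 35.5% of those of METTL1, and in 36.7% and 39.4% of those of WDR4. The groups did not overlap, and the difference was 14.5 percentage points (exact permutation p = 0.0667), or 15.3 among single-copy clusters and 6.87 among clusters at or above the median width. G made up 13.5% and 12.6% of the bases in the IGF2BP1 windows, against 19.7% and 18.6% for METTL1 and 18.2% and 16.4% for WDR4. The difference in G of -5.18 percentage points (exact permutation p = 0.0667) was -1.80 among the wider clusters (exact permutation p = 0.2). Adenine went the other way, at 24.1% ± 0.172 (SD, n = 2) against 19.9% ± 0.8287 (SD, n = 4), with exact permutation p = 0.0667.

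RNase T1 cuts after G, and its traces moved with these groups. The base just before the first base of a cluster was G in 93.4% and 94.0% of the IGF2BP1 clusters, in 85.9% and 86.1% of the METTL1 clusters and in 79.5% and 74.2% of the WDR4 clusters. Its part in the base composition was not tested.

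Within each library, clusters at and away from a site of the other side differed too. Of the 3' UTR clusters of the complex away from IGF2BP1 sites, 29.0% and 27.4% (METTL1) and 28.1% and 31.5% (WDR4) held CAUH. At IGF2BP1 sites the values were 39.8%, 41.5%, 42.5% and 44.4% in the same order, higher in 4 of 4 libraries. For IGF2BP1 the order was turned, with 52.6% and 54.4% away from sites of the complex and 40.0% and 40.2% at them. The shared clusters of all 6 libraries lay between 39.8% and 44.4%. Clusters at a site of the other side overlap it, so the windows of both sides there cover much of the same sequence. Their like values thus follow in part from the overlap rule. In the libraries of the complex, G made up 21.3% to 25.5% of the windows away from IGF2BP1 sites and 13.3% to 15.6% at them.

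**Figure D3:**
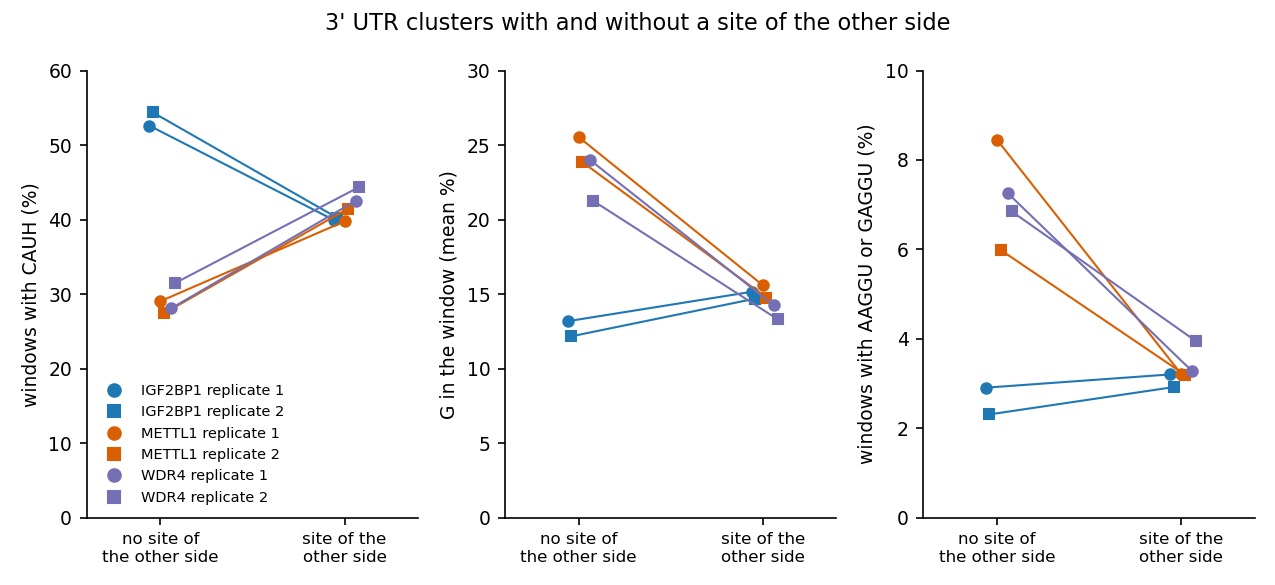
For the 3' UTR clusters of each library without and with a site of the other side (x axis), the percentage of 41-nt windows with CAUH (left), the mean percentage of G (middle) and the percentage of windows with AAGGU or GAGGU (right). The lines of the libraries start apart and meet, with CAUH between 39.8% and 44.4% and G between 13.3% and 15.6% where both sides have a site. There the windows of both sides cover much of the same sequence, so the meeting follows in part from the overlap rule.

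Over reproducible 3' UTR sites, CAUH stood in 56.3% of the 3892 IGF2BP1 sites without the complex, 40.1% of the 998 IGF2BP1 sites at a site of the complex, and 25.7% of the 268 sites of the complex without IGF2BP1. Windows tiled over the 3' UTRs of the genes with a site held it in 38.2% of 236577 cases. GGAC, the centre of a methyladenosine motif, stood in 4.62%, 5.61% and 11.6% of the same 3 kinds of sites and in 8.19% of the tiled windows. AAGGU or GAGGU, which resembles the variable loop sequence that METTL1 is known to methylate, stood in 2.29%, 2.51% and 8.21%, against 7.01% of the tiled windows. Motifs were searched on the strand of the site. C made up 32.4%, 35.9% and 29.7% of the windows, all above the 20.4% of the tiled windows.

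The IGF2BP1 sites changed stepwise with the number of libraries of the complex at the site. From none to 4, the share of 3' UTR windows with CAUH was 59.1%, 47.6%, 41.9%, 37.1% and 39.5%. The median site width over the same steps was 40, 45, 48, 53 and 63 nt, and the share of single-copy sites fell from 71.0% to 36.1%. Width and repeated sequence moved with sharing, and their part in it was not tested.

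Genes were classed by the sites in their coding sequence and UTRs. Of the 5225 protein-coding genes with at least 1 such cluster in any library, 2150 (41.1%) had IGF2BP1 sites alone, 192 (3.67%) sites of the complex alone, 81 (1.55%) both at different sites and 847 (16.2%) both at the same site. The other 1955 had no reproducible site. The 928 genes with both sides were 30.1% of the 3078 genes with an IGF2BP1 site and 82.9% of the 1120 genes with a site of the complex. In 847 of those 928 genes at least 1 site was the same.

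Many genes classed by a single side still had clusters of the other. Of the 2150 genes with IGF2BP1 alone, 1100 had no cluster of the complex, 769 had clusters in 1 of its libraries and 281 in 2 or more, without a reproducible site. Of the 192 genes with the complex alone, 92 had no IGF2BP1 cluster. The count of 192 was sensitive to single libraries, at 112 without METTL1 replicate 1, 117 without METTL1 replicate 2 and 113 without WDR4 replicate 1. The 81 genes with different sites became 53 without WDR4 replicate 1 and 53 without WDR4 replicate 2. Genes with IGF2BP1 alone and genes with the same site had similar median 3' UTR lengths in the annotation, at 2413 and 2378 nt, while genes with the complex alone had a median of 1184 nt. A single IGF2BP1 site stood in 66.4% of the former and in 30.5% of the genes with the same site.

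IGF2, the fetal growth factor whose mRNA gave the IGF2BP family its name, stood first among the genes held at the same site. Its mRNA carried 37 and 36 clusters in the IGF2BP1 libraries, 33 and 37 in the METTL1 libraries and 37 and 32 in the WDR4 libraries. All 6 libraries were thus at a like number. The gene, on chr11:2129112-2158391 (minus strand), had 32 IGF2BP1 sites and 32 sites of the complex, and 29 of the IGF2BP1 sites were also sites of the complex. On both sides 24 of the sites lay in the 3' UTR, 7 in the 5' UTR and 1 in coding sequence.

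APOB, which encodes the large apolipoprotein of low density lipoprotein, showed the opposite balance. It carried 43 and 50 clusters in the IGF2BP1 libraries and 8, 14, 15 and 8 in those of METTL1 and WDR4. Cluster numbers of genes are not scaled to the library. The IGF2BP1 libraries held 14502 and 15701 clusters in all, and the libraries of the complex 6615 to 9765. Of its 39 IGF2BP1 sites, 37 lay in coding sequence, and 11 were also sites of the complex. NFAT5, the transcription factor of the response to osmotic stress, had 19 and 24 IGF2BP1 clusters against 4, 5, 6 and 7, with 7 of 18 IGF2BP1 sites shared. SCD, the desaturase that makes oleic acid, had 15 and 16 against 7, 5, 9 and 7, with 7 of 12 shared. MDM2, a ubiquitin ligase, had 14 and 14 against 7, 9, 6 and 10, with 8 of 12 shared, all in its 3' UTR. PLBD2, a lysosomal protein, had 14 and 14 against 8, 11, 14 and 9, and its 11 IGF2BP1 sites and 13 sites of the complex lay in the 3' UTR.

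The genes with IGF2BP1 alone were led by ATXN1L, a partner of the repressor Capicua. It carried 12 clusters in both IGF2BP1 libraries and 1, 0, 3 and 1 in those of the complex, and had 11 sites, 8 of them in the 3' UTR. QSER1 had 11 and 13 IGF2BP1 clusters against 0, 1, 1 and 0, and 10 of its 11 sites lay in coding sequence. SPTBN1, a beta-spectrin of the membrane skeleton, had 10 and 11 against 0, 3, 0 and 0. The copper importer SLC31A1 had 10 and 10 against 1, 0, 2 and 1. PROSER1 had 10 and 13 against 0, 3, 1 and 1, and the transcription factor ZFHX3 11 and 11 against 1, 1, 0 and 2. In all 6 of these genes each library of the complex had at most 3 clusters. This follows in part from the rule, which chose genes without a reproducible site of the complex. On ATXN1L, the METTL1 replicate 1 cluster and some WDR4 replicate 1 clusters matched IGF2BP1 clusters.

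The genes with the complex alone had at most 2 sites. HNRNPA0, which encodes an RNA-binding protein, carried 4 and 2 METTL1 clusters, 3 and 2 WDR4 clusters and 1 in each IGF2BP1 library. Its 2 sites of the complex lay in the 5' UTR, and an IGF2BP1 cluster of replicate 2 lay at one of them. ZBTB7B, a transcription factor of T cell lineage choice, had 3 clusters in both METTL1 libraries, 1 in both WDR4 libraries and 1 in both IGF2BP1 libraries. IRF2BP2, a transcriptional corepressor, had 3, 2, 1 and 0 in the libraries of the complex and 0 and 3 in those of IGF2BP1. PRR12 had 4, 1, 2 and 2 against 3 and 1. NOM1, a nucleolar protein, had 0, 2, 2 and 3 against 1 and 1, and AP4S1, a subunit of the AP-4 adaptor, 2, 1, 1 and 1 against 2 and 1. The cluster numbers of the groups overlapped for all of these genes but HNRNPA0. The genes were chosen by sites made from the same clusters, so their cluster numbers are not independent evidence. The sites of HNRNPA0, NOM1 and AP4S1 had centres that occur more than once in the genome.

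In the genes with both sides at different sites, the nearest sites lay a median of 881 nt apart along the transcript, and in 10 of the 77 genes with positions on the canonical transcript within 100 nt. ZNF8, a zinc finger protein, had 7 clusters in both IGF2BP1 libraries and 1, 4, 2 and 0 in the libraries of the complex. Clusters of METTL1 replicate 2 overlapped IGF2BP1 clusters of both replicates, and a WDR4 replicate 1 cluster matched a cluster of IGF2BP1 replicate 1. Its class thus holds for reproducible sites alone. EIF4G2, which supports cap-independent translation, had 3 IGF2BP1 sites, all in coding sequence, and 3 sites of the complex, 2 of them in the 5' UTR. KLHL11 and STK35 each had 5 IGF2BP1 sites and 1 of the complex in the 3' UTR. SERPINA3, the plasma inhibitor alpha-1-antichymotrypsin, had 4 and 1, and LASP1, an actin-binding protein, 3 and 1.

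**Figure D4:**
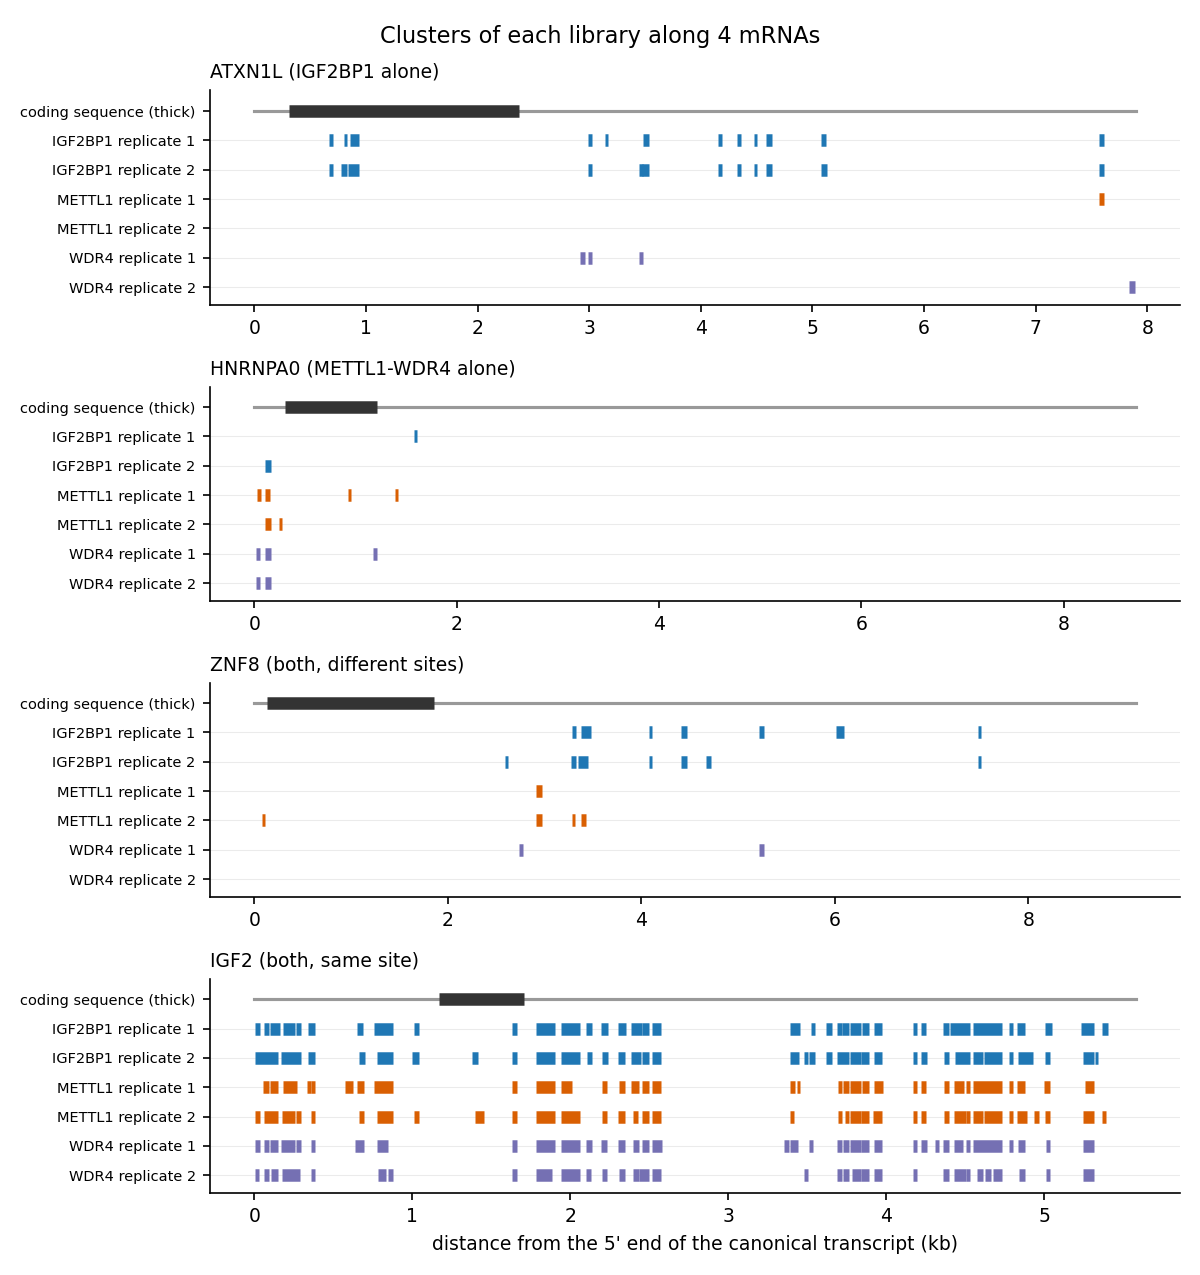
Clusters of each library (rows) along the canonical transcripts of the first named gene of each class, against the distance from the 5' end (x axis, kb), where the thick line marks coding sequence and the narrowest clusters are drawn at a minimum width. IGF2 carries matching rows of clusters in all 6 libraries, whereas ATXN1L has 12 in both IGF2BP1 libraries and at most 3 in any library of the complex.

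Among 23 known IGF2BP targets, 16 had an mRNA cluster, and 8 of those (50.0%) were held at the same site, against 16.2% of all genes. These included IGF2, the chromatin protein genes HMGA2 (12 and 13 IGF2BP1 clusters against 5, 5, 2 and 3) and HMGA1 (8 and 8 against 4, 2, 1 and 2), and IGF2BP1 itself (13 and 10 against 6, 7, 5 and 2). A further 5 (31.25%) had IGF2BP1 alone, against 41.1% of all genes, among them the receptor IGF1R, and 0 had the complex alone, against 3.67%. The list was drawn up for IGF2BP proteins and with earlier results of these data known, so its IGF2BP1 share is not independent evidence.

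Of the genes of the methylation machinery, 15 had a cluster, and 8 of them (53.3%) had IGF2BP1 alone, against 41.1% of all genes, 3 (20%) the same site, against 16.2%, and 0 the complex alone, against 3.67%. QKI, an RNA-binding protein that the study names as an m7G reader, carried 7 and 6 IGF2BP1 clusters and 0 in all 4 libraries of the complex. ALKBH5 and FTO, the demethylases of methyladenosine, and METTL16, a methyltransferase, were held at the same site. METTL16 had 0 clusters in both METTL1 libraries and 1 in both WDR4 libraries, and none of its sites had a single-copy centre. RBM15B and CBLL1, which belong to the methyladenosine writer complex, had IGF2BP1 alone.

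Among 25 genes of RNA decay with a cluster, 12 (48%) had IGF2BP1 alone, against 41.1% of all genes. The same site was found in 3 (12%), against 16.2%, different sites in 1 (4%), against 1.55%, and the complex alone in 0, against 3.67%. The helicase DDX6 had 5 and 9 IGF2BP1 clusters against 1, 2, 2 and 1, with all 3 sites of the complex shared. PATL1, a decapping factor, had 4 and 6 against 0 in every library of the complex, and CNOT6, a deadenylase, 3 and 3 against 0. EXOSC6 of the exosome had 7 and 3 against 1, 2, 2 and 3, with no single-copy site. SMG1, the kinase of nonsense-mediated decay, had both sides at different sites. Of the 11 microRNA pathway genes with a cluster, 7 (63.6%) had IGF2BP1 alone, against 41.1% of all genes, among them AGO3 and AGO1, and 2 (18.2%) the same site, against 16.2%, TNRC6B and AGO2.

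Secreted liver proteins were held by both sides in many cases. Of 22 plasma protein genes with a cluster, 7 (31.8%) had the same site, against 16.2% of all genes. IGF2BP1 alone held 8 (36.4%), against 41.1%, both sides at different sites 2 (9.09%), against 1.55%, and the complex alone 1 (4.55%), against 3.67%. SERPINA1, the plasma protease inhibitor, had 7 and 11 IGF2BP1 clusters against 3, 4, 3 and 2, and FN1, fibronectin, 13 and 12 against 2, 5, 3 and 2. Of 24 ribosomal protein genes with a cluster, 7 (29.2%) had the same site, against 16.2% of all genes. Another 7 (29.2%) had IGF2BP1 alone, against 41.1%, and 1 (4.17%), RPL37A, the complex alone, against 3.67%. RPS29 led the ribosomal protein genes with 18 and 15 IGF2BP1 clusters against 6, 3, 7 and 3. A single-copy centre was found in 4 of its 15 IGF2BP1 sites and in 0 of its 4 sites of the complex. All of these RPS29 sites were classed as 3' UTR by any annotated transcript, while the 3' UTR of its canonical transcript has 93 nt. Which transcripts carried the sites was not tested. Of 85 zinc finger genes of chromosome 19 with a cluster, 34 (40.0%) had IGF2BP1 alone, close to the 41.1% of all genes. The same site was found in 19 (22.4%), against 16.2%. ZNF121 had 15 and 16 clusters against 2, 5, 6 and 4. Of 13 histone genes with a cluster, 1 (7.69%) had IGF2BP1 alone, against 41.1% of all genes, and 2 (15.4%) the complex alone, against 3.67%. These 2, H2AC14 and H2AC13, share a sequence with 2 copies in hg38, so their sites may be a single one. They carried 0 clusters in the IGF2BP1 libraries and 1 or 2 in every library of the complex.

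**Figure D5:**
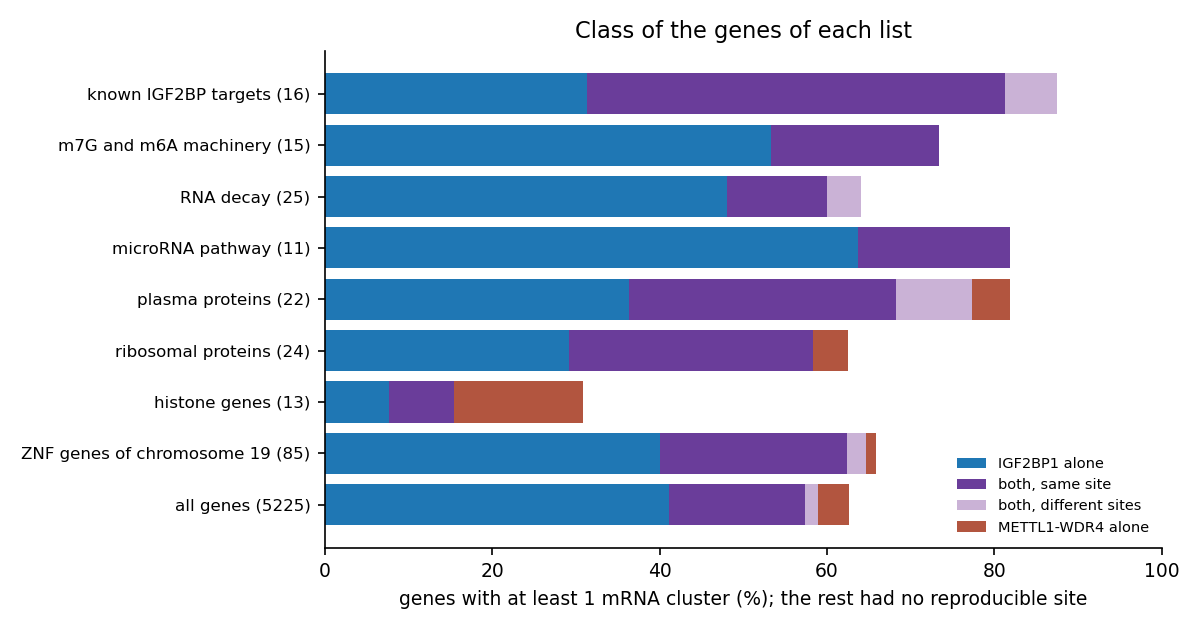
Percentage of the genes with at least 1 mRNA cluster (x axis, %) in each class, for 8 lists and all genes, with the number of genes in brackets. Among known IGF2BP targets 50.0% were held at the same site, against 16.2% of all genes.

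The transcripts that the study targeted with tethered proteins were mixed. BPNT2 had 4 IGF2BP1 sites and 1 of the complex, NDRG1 2 and 1, and ZDHHC9 5 and 1, all with the same site. HUWE1 had 2 IGF2BP1 sites alone, and CYRIB had no reproducible site, with 1 cluster in a WDR4 library.

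With sites in exons of noncoding genes, 215 had IGF2BP1 alone, 62 the complex alone, 68 both at the same site and 1, LINC00958, at different sites. Of the long noncoding RNA genes among them, 141 of 197 (71.6%) had IGF2BP1 alone, 30 (15.2%) the same site and 25 (12.7%) the complex alone. Of the 3270 protein-coding genes with a site, 65.7% had IGF2BP1 alone, 25.9% the same site and 5.87% the complex alone. IGF2BP1 alone was led by the long noncoding RNAs DIP2C-AS1 (7 and 6 clusters against 0, 0, 0 and 1), LINC01278 (7 and 7 against 0) and DANCR (6 and 4 against 0, 0, 0 and 1). The same-site genes were led by MTCO1P12, MTND4P12, MTND2P28 and MTND5P11, nuclear copies of mitochondrial genes, and many of their sites repeat sequence found elsewhere in the genome, with 0, 3, 5 and 3 sites of a single-copy centre in the same order. The class of the complex alone included MIR663AHG and the small nuclear RNA 7SK, which holds the elongation factor P-TEFb inactive.

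Small structured RNAs were found mostly with the complex. Of 37 small noncoding RNA genes with a site (annotated as misc_RNA, snRNA, snoRNA, ribozyme or miRNA), 26 had the complex alone, 5 IGF2BP1 alone and 6 the same site. Over all noncoding genes with a site, the same classes held 62, 215 and 68 genes. The group of small noncoding RNA genes was formed after the values were seen. Clusters at such genes made up 0.124% and 0.127% of the IGF2BP1 libraries, 0.559% and 0.532% of the METTL1 libraries and 0.451% and 0.391% of the WDR4 libraries. The groups did not overlap (exact permutation p = 0.0667). RMRP, the RNA of the RNase MRP enzyme, carried 1 cluster in all 4 libraries of the complex and 0 in the IGF2BP1 libraries. RN7SL1, the RNA of the signal recognition particle, had 1, 2, 0 and 1 against 0 and 0. RPPH1, the RNA of RNase P, and RNU5E-1, a U5 spliceosomal RNA, were held at the same site. Many of these RNAs have near-identical copies, and the mapping allowed up to 10 places per read, so the gene of a cluster can be a copy of the true one. Of the 35 sites of the complex at such genes, 11 had a single-copy centre.

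The known substrate class of the complex, tRNA, showed the same side. METTL1 libraries held 24 and 33 clusters at tRNA genes, WDR4 libraries 13 and 10, and IGF2BP1 libraries 2 and 1, as counts of clusters. As shares these were 0.363%, 0.382%, 0.133% and 0.109% for the complex against 0.0138% and 0.00637%, so the groups did not overlap (exact permutation p = 0.133). Of the 443 tRNA genes in the table, 17 carried 18 sites of the complex, and 1 carried an IGF2BP1 site, TRL-TAA1-1, which was also a site of the complex. Without METTL1 replicate 2, the 18 sites became 9. Of the 18 sites, 2 were found in all 4 libraries, at TRY-GTA2-1 and TRA-CGC3-1. The exact T-arm pattern was found in 9 of the 18 windows, and in 16 of all 4561 windows of the complex against 7 of the 10603 windows of IGF2BP1. Variants of the pattern were not counted.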

How the data were processed

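The deposited values are of another kind than counts or scores: per the labels and files, each line that the authors deposited is the hg38 interval of a PAR-CLIP cluster in a library. Per the methods, the authors quality-filtered, clipped and collapsed reads, kept those over 15 nt, mapped them with bowtie (-v 3 -m 10) and called clusters with PARalyzer. Tool versions and PARalyzer settings were not given in the sources used here. Depth per cluster is unknown.

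Starts were read as counted from 1. Midpoints were classed on their strand with GENCODE release 44 (coding sequence before 3' UTR). Windows were 41 nt, and copy number was the number of hg38 occurrences of the central 20 nt. Group means were tested by two-sided exact permutation (Python 3.11.15, numpy 2.4.6, pandas 2.3.3, pysam 0.24.0, scipy 1.17.1), and Wilson intervals were at 95%. Code was tested on simulated data. p-values measure the spread between these libraries, which the methods describe as separately seeded plates. Members and lists were chosen with earlier results of these data known. Named protein-coding genes were the 6 with the most sites in each class, noncoding genes the first 4, and list members the first 4, to which FTO, METTL16, CNOT6, IGF1R, RPL37A, RMRP, RN7SL1, RPPH1 and RNU5E-1 were added after their values were seen. At least 1 gene that the rules name is not reported here. The other 6 libraries of the series served only to find IGF2BP2 or IGF2BP3 clusters.

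Alternatives were leaving out a library, a replicate block, 1 transcript per gene, another annotation order, single-copy or wide clusters, main chromosomes, METTL1 or WDR4 alone, proteins as units, and stricter or looser rules for sites.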

Additional observations from a re-analysis of the deposited data

Results flagged for a closer look

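On 4 measures both IGF2BP1 libraries lay between the METTL1 and the WDR4 libraries, so that IGF2BP1 differed from METTL1 in one direction and from WDR4 in the other. The difference between these contrasts was not tested. C made up 32.6% of the 3' UTR windows of IGF2BP1 on average, against 33.6% and 33.3% in the METTL1 and 32.3% and 32.1% in the WDR4 libraries. Among single-copy 3' UTR windows the IGF2BP1 mean was 33.2%, with METTL1 above and WDR4 below. The single-copy share of intergenic clusters was 44.5% for IGF2BP1, 36.7% and 34.6% for METTL1 and 47.2% and 50.0% for WDR4. The single-copy share of coding sequence clusters was 86.5% for IGF2BP1, 87.5% and 87.3% for METTL1 and 82.5% and 83.1% for WDR4. No library of the complex stood apart from the other 3 by Dixon's criterion on any of the 35 measures, and chance alone flags about 1 in 20 groups.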

How the results depend on the processing

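The 3' UTR, intron, coding sequence, intergenic, CAUH and G differences kept their direction under every alternative run. Of 107 alternatives to the share and base results, 106 kept the direction, and the noncoding exon difference turned to -0.165 percentage points (exact permutation p = 0.733) with single-copy clusters. Leaving out a library gave 23.1 to 24.0 percentage points for 3' UTRs, -20.2 to -18.4 for introns, 4.48 to 5.86 for coding sequence, -6.95 to -5.16 for intergenic sequence, 0.197 to 0.438 for noncoding exons, 13.7 to 15.4 for CAUH and -5.80 to -4.69 for G. The replicate block left the means as they were. Its 3' UTR difference was 23.7, with an exact permutation p of 0.111, the smallest it allows. The replicate differences of the 3 proteins correlated at -0.00947 to 0.00659 over 39416 merged intervals. Intervals held by a single protein add little to this correlation, so it cannot settle whether replicate numbers pair the samples. Counts were less stable, and 31 of 89 moved by over 1.5 times. With METTL1 alone, sites of the complex numbered 1935, shared IGF2BP1 sites 1280, and genes 73 (complex alone), 28 (different sites) and 451 (same site), and with WDR4 alone 2551, 1457, 67, 31 and 528. With sites in 3 or more of the 4 libraries the same counts were 2031, 1456, 41, 21 and 501. Sites that needed METTL1 and WDR4 left 109 genes with the complex alone. When any cluster of the other side counted, shared IGF2BP1 sites were 4236, and genes 1100 (IGF2BP1 alone), 92, 478 and 1600. Single-copy clusters gave 6515 IGF2BP1 sites, 2130 of the complex, 926 shared and 532 genes with the same site. Without a library of the complex, its sites numbered 3032 to 3700, shared IGF2BP1 sites 1794 to 1991, and genes 2290 to 2378 (IGF2BP1 alone), 112 to 132 (complex alone), 53 to 60 (different sites) and 647 to 728 (same site). The cause of these moves was not tested beyond the smaller number of libraries that some rules imply. Leaving out an IGF2BP1 library gives no count, since both are needed. Clusters carry no read numbers, so depth limits each statement on absence.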
